A study of Drosophila melanogaster with 12 samples.

Results

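The TCA cycle genes described here are the 9 genes of the deposited exon count table named kdn, Acon, Idh, Nc73EF, skap, SdhB, l(1)G0255, Mdh1 and Mdh2, out of 16413 gene names in the table. They were taken by name, as enzymes of the cycle and malate dehydrogenases. The counts come from RNA sequencing of whole Drosophila melanogaster larvae at the 3rd instar, with 3 libraries in each of 4 groups. The groups were wild-type larvae and larvae of the mlx1 line, null for Mlx, each on low and on high sugar. All larvae were raised on food of 10% yeast, from eggs laid over 3 h, with 24 h to a first and 24 h to a second transfer. They were then moved either to a fresh plate of 10% yeast, the low sugar food, and collected at 1.5 h, or to 10% yeast with 20% sucrose, the high sugar food, and collected at 8 h. Diet, hours after transfer and age at collection therefore cannot be told apart. The number of larvae in a library was not given in the sources used here, so the p-values cover the spread among libraries, which may in part be technical.

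In the TCA cycle, mitochondria oxidise the acetyl group of acetyl-CoA to carbon dioxide and pass the electrons to the respiratory chain. Citrate synthase condenses acetyl-CoA with oxaloacetate, and aconitase, isocitrate dehydrogenase, the 2-oxoglutarate dehydrogenase complex, succinyl-CoA ligase, succinate dehydrogenase, fumarase and malate dehydrogenase regenerate oxaloacetate. In a larva that feeds on sugar the cycle also supplies citrate for fatty acid synthesis, and malate and 2-oxoglutarate for shuttles and amino acid synthesis. Mlx pairs with Mondo, the fly homologue of ChREBP, to form a transcription factor that responds to intracellular sugar.

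Library totals ran from 8924342 to 12507970 counts, and the 9 genes held 0.519 to 0.800% of a library's counts. Of the 16413 genes, 10045 passed the filter on low counts, the 9 enzymes among them. Levels are given in CPM, counts scaled to a common library total and by TMM normalisation factors, which lay between 0.9612 and 1.048. The Mlx gene, listed as bigmax, stood at 26.2 to 34.1 CPM in wild-type libraries and 0.494 to 1.08 CPM in mlx1 libraries, so the labels of all 12 libraries went with it. Differences are log2 fold changes with their standard errors from edgeR's quasi-likelihood test, called where the Benjamini-Hochberg adjusted p over all 10045 genes was under 0.05. Because whole larvae were sampled, fewer cells of a type and less RNA per cell cannot be told apart.

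Of the 9 enzymes, 4 moved and 5 did not pass the test in any of the 4 contrasts. The NADP-dependent isocitrate dehydrogenase (Idh), distinct from the NAD-dependent enzyme of the cycle, was higher in mlx1 larvae than in wild type on both diets. The 2-oxoglutarate dehydrogenase gene Nc73EF and fumarase, l(1)G0255, were higher in mlx1 larvae on high sugar, and the succinyl-CoA ligase gene skap was higher in mlx1 larvae on low sugar. On high against low sugar, skap rose in wild-type larvae, and Idh and Nc73EF rose in mlx1 larvae. A difference between the diet responses of the genotypes was called for none of the 9 by edgeR and for skap by DESeq2. No enzyme of the 9 was called lower in any of the 4 contrasts, by edgeR or by DESeq2, and none was lower at an unadjusted p under 0.05.

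**Figure D1:**
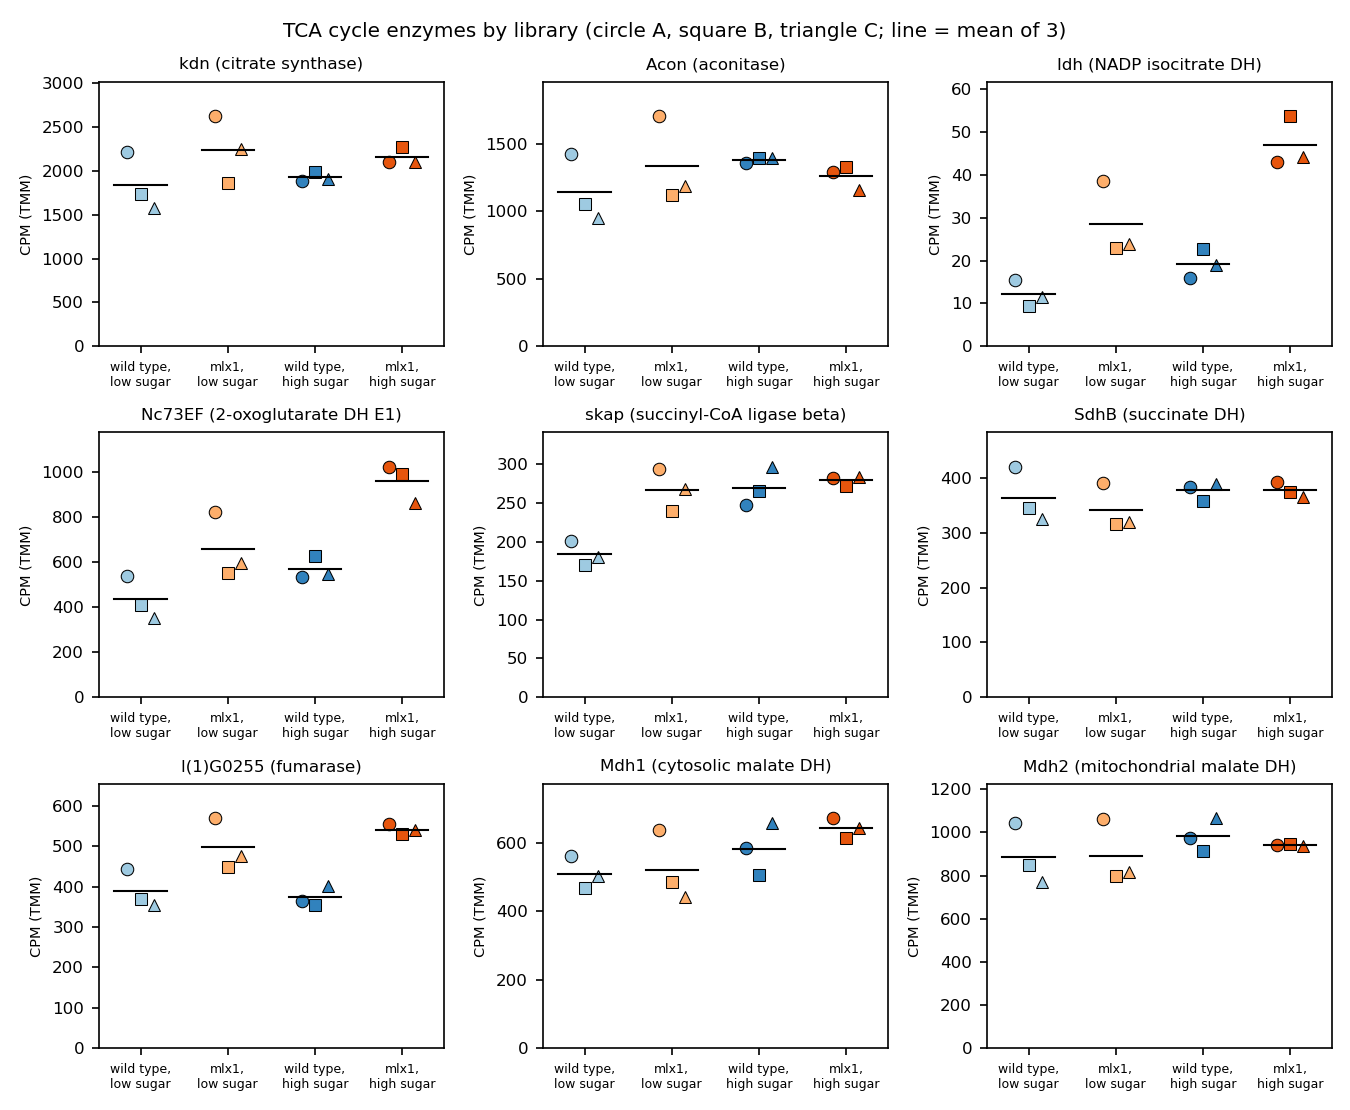
Level of each of the 9 enzymes in every library, in CPM on an axis from 0, with 1 panel for a gene, the 4 groups side by side and a line at the mean of 3 libraries. Idh and Nc73EF are highest in mlx1 larvae on high sugar, at 43.1 to 53.8 and 863 to 1021 CPM, and in both low sugar groups library A (circle) is the highest of the 3 in every panel.

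Idh encodes the NADP-dependent isocitrate dehydrogenase, which makes 2-oxoglutarate and NADPH and is distinct from the NAD-dependent enzyme of the cycle. It lies on chromosome 3L at 8349504 to 8354006, minus strand (all positions are those of the deposited table, whose genome build is not given in the sources used here, and strands are from the Ensembl annotation). Idh stood at 15.6, 9.33 and 11.5 CPM in wild-type low sugar libraries A, B and C. It stood at 38.7, 22.9 and 23.9 CPM in mlx1 low sugar libraries. The high sugar values were 15.8, 22.7 and 19.1 CPM in wild type and 43.1, 53.8 and 44.2 CPM in mlx1. On each diet every mlx1 library was above every wild-type library, and in each genotype every high sugar library was above every low sugar library. The mlx1 level was 2.35-fold the wild-type level on low sugar (log2 fold change 1.23 ± 0.24 SE, adjusted p = 0.0137 by edgeR) and 2.45-fold on high sugar (1.29 ± 0.23, adjusted p = 0.00331 by edgeR). The diet difference was 0.72 ± 0.23 in mlx1 larvae (adjusted p = 0.0337 by edgeR), and in wild-type larvae it was 0.66 ± 0.24, short of the threshold (adjusted p = 0.0633 by edgeR). That wild-type difference was called in 6 of 18 alternatives, among them DESeq2 (adjusted p = 0.0235) and edgeR with RLE factors (0.0465) or a filter of at least 5 CPM in 3 libraries (0.0461). The diet differences of the 2 genotypes were 0.06 apart, with a 95% interval of -0.66 to 0.78.

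The Idh values rest on a small stretch of the gene. Of its 10 exon entries, 8 overlap another entry, and 5 entries held no count in any library. Of the gene's counts, 96.0% lay in entry 10, the 114 bases at 8353893 to 8354006, which is the 5′-most entry on the minus strand. That entry held 3168 reads over the 12 libraries, against 73 in entry 9 and 33 in entry 4. The log2 ratio of mlx1 to wild type in entry 10 was 1.24 on low sugar and 1.28 on high sugar. The Idh level thus measures the first part of the transcript, and its low CPM says little of its abundance beside the other enzymes. Leaving out a single library ended the low sugar call when wild-type B (adjusted p = 0.0688 by edgeR) or wild-type C (0.0589) was left out. It ended the mlx1 diet call for low sugar B (0.101) and C (0.118) and for high sugar A (0.0621), B (0.109) and C (0.0630). Without wild-type low sugar library A the wild-type diet difference was 0.89 and was called (adjusted p = 0.0242 by edgeR).

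Nc73EF (Ogdh in the Ensembl annotation) encodes the E1 subunit of the 2-oxoglutarate dehydrogenase complex, which releases carbon dioxide and forms succinyl-CoA. It lies on 3L at 16948035 to 16961824, plus strand, with 21 exon entries. Its level was 540.1, 409.6 and 354 CPM in wild-type low sugar libraries A, B and C, and 824, 551 and 594 CPM in mlx1 low sugar libraries. On high sugar it was 536, 627 and 548 CPM in wild type and 1021, 988 and 863 CPM in mlx1. Every mlx1 library was above every wild-type library on the same diet. The groups of the wild-type diet contrast overlapped, those of the mlx1 diet contrast did not. On high sugar the mlx1 level was 1.68-fold the wild-type level (log2 fold change 0.75 ± 0.18 SE, adjusted p = 0.0144 by edgeR). The low sugar difference was 0.60 ± 0.18 and was not called (adjusted p = 0.0981 by edgeR). DESeq2 called it (0.59, adjusted p = 0.023). It was also called in a fit, chosen after the data were seen, that took same-letter low sugar libraries as pairs (adjusted p = 0.00445 by edgeR). From low to high sugar Nc73EF rose by 0.54 ± 0.18 in mlx1 larvae (adjusted p = 0.0357 by edgeR), and the wild-type difference was 0.39 ± 0.18 (0.129). The high sugar call was lost without wild-type library A (adjusted p = 0.0564 by edgeR), wild-type library C (0.0529) or mlx1 library A (0.0637). The mlx1 diet call was lost without low sugar B (0.111) or C (0.121), or high sugar A (0.118) or B (0.0866). Without wild-type low sugar library A, both uncalled contrasts were called, at 0.79 for genotype on low sugar (0.0318) and 0.58 for diet in wild type (0.0303).

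The succinyl-CoA ligase gene skap (ScsbetaA in the annotation) encodes a beta subunit of the enzyme that converts succinyl-CoA to succinate and forms a nucleoside triphosphate. It lies on 3R at 4764405 to 4768749, plus strand, with 12 entries. Its level was lowest in wild-type low sugar libraries, at 201, 169.5 and 181 CPM in A, B and C. The other groups stood close together, at 293, 239 and 268 CPM in mlx1 low sugar, 248, 265 and 296 CPM in wild-type high sugar, and 281, 271 and 284 CPM in mlx1 high sugar. No library of these 3 groups fell into the range of wild-type low sugar. In wild type skap rose 1.47-fold on high sugar (log2 fold change 0.55 ± 0.11 SE, adjusted p = 0.00387 by edgeR), a call kept in all 19 alternatives run. In mlx1 larvae the diet difference was 0.06 ± 0.11, with a 95% interval of -0.17 to 0.30. On low sugar the mlx1 level was 1.45-fold the wild-type level (0.54 ± 0.11, adjusted p = 0.0175 by edgeR), and on high sugar the genotypes were 0.05 ± 0.11 apart, with an interval of -0.19 to 0.28. The test of the difference between the diet responses gave -0.49 ± 0.15 and an adjusted p of 0.0775 by edgeR, so a smaller response in mlx1 was not called. DESeq2 called it (adjusted p = 0.00915), as did edgeR without mlx1 low sugar library B (0.0407). The low sugar genotype call was lost without wild-type B (0.0969 by edgeR), wild-type C (0.0590) or mlx1 C (0.0622).

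The fumarase gene l(1)G0255 (Fum1 in the annotation) encodes the enzyme that hydrates fumarate to malate. It lies on the X chromosome at 6572457 to 6575878, plus strand, and 2 of its 6 entries overlap entries of another gene. Its level was 442, 369 and 354 CPM in wild-type low sugar libraries A, B and C, and 569.6, 448 and 476 CPM in mlx1 low sugar libraries. On high sugar it was 365, 354 and 402 CPM in wild type and 554, 529.7 and 539.5 CPM in mlx1. On both diets the mlx1 libraries all lay above the wild-type ones, while the diet groups overlapped in both genotypes. On high sugar the mlx1 level was 1.45-fold that of wild type (log2 fold change 0.53 ± 0.12 SE, adjusted p = 0.00997 by edgeR). On low sugar the difference was 0.36 ± 0.12 and was not called (adjusted p = 0.128 by edgeR). DESeq2 called it (0.35, adjusted p = 0.0393). It was also called with same-letter libraries taken as pairs (0.0170 by edgeR), the fit chosen after the data were seen. The diet differences were -0.06 ± 0.12 in wild type and 0.12 ± 0.12 in mlx1. Without wild-type high sugar library B the genotype call was just lost, with a difference of 0.50 (adjusted p = 0.0512 by edgeR).

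**Figure D2:**
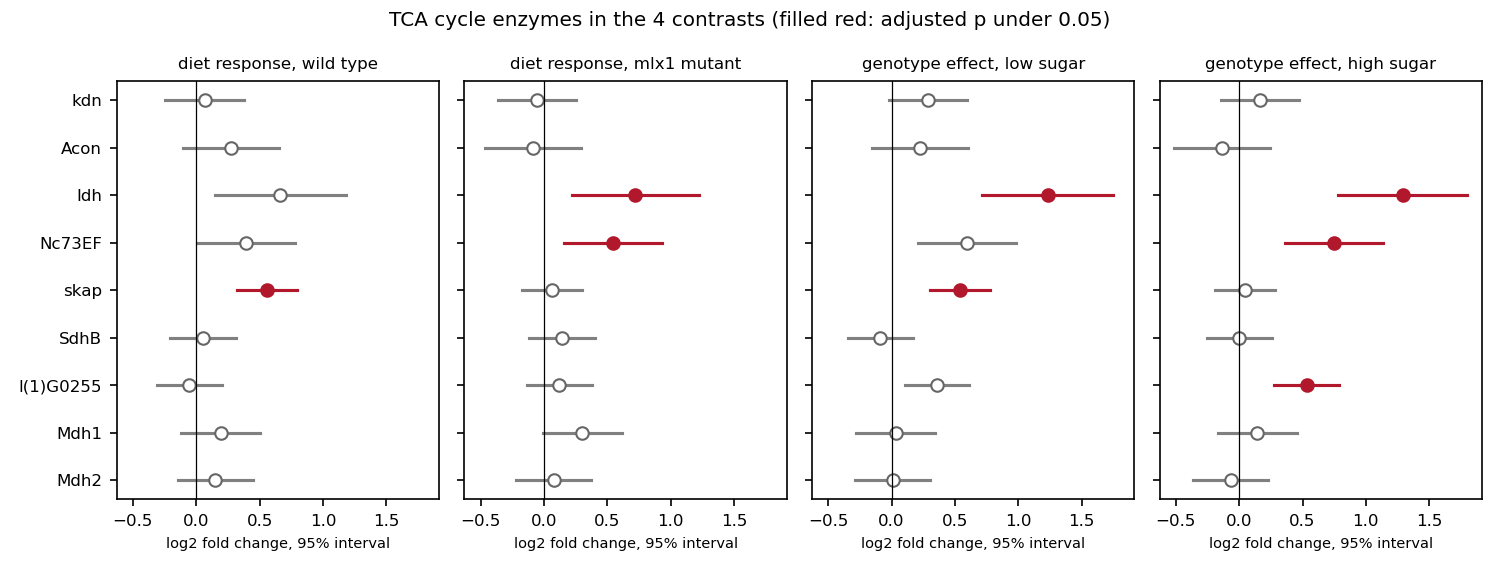
Log2 fold change of each enzyme in the 4 contrasts with its 95% interval, filled red where the adjusted p was under 0.05. The intervals of kdn, Acon, SdhB, Mdh1 and Mdh2 include 0 in every panel, and those of Idh in the genotype panels lie between 0.72 and 1.80.

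The remaining 5 enzymes were not called in any contrast. The citrate synthase gene kdn makes citrate from acetyl-CoA and oxaloacetate and lies on X at 6244662 to 6255356, plus strand. Its group means were 1842 ± 334.1 CPM (SD, n = 3) in wild-type low sugar, 2246 ± 382 in mlx1 low sugar, 1928 ± 53.2 in wild-type high sugar and 2161 ± 94.2 CPM in mlx1 high sugar. The mlx1 high sugar libraries, at 2104, 2269 and 2108 CPM, were all above the wild-type ones, at 1883, 1987 and 1913 CPM. That difference was 0.16 ± 0.14 on the log2 scale, with a 95% interval of -0.15 to 0.47.

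Acon (mAcon1 in the annotation) encodes the mitochondrial aconitase, an iron-sulfur enzyme that isomerises citrate to isocitrate, and lies on 2L at 21168651 to 21173185, plus strand. Its means were 1142 ± 251 CPM (SD, n = 3) in wild-type low sugar and 1336 ± 321 CPM in mlx1 low sugar. On high sugar they were 1382 ± 23.7 CPM in wild type and 1259 ± 89.1 CPM in mlx1. On high sugar all 3 mlx1 libraries (1288, 1329 and 1158 CPM) were below the 3 wild-type ones (1355, 1396 and 1396 CPM), against the direction of the enzymes that moved. The difference was -0.14 ± 0.17, with an interval of -0.51 to 0.24.

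SdhB encodes the iron-sulfur subunit of succinate dehydrogenase, which is also complex II of the respiratory chain, and lies on 2R at 2695131 to 2696677, plus strand. It had the smallest genotype difference on high sugar, with means of 377.7 ± 16.6 and 377.7 ± 13.7 CPM in wild type and mlx1 (SD, n = 3). The log2 difference was -0.0002 with an interval of -0.26 to 0.26. On low sugar its libraries ranged from 326 to 420.1 CPM in wild type and from 315 to 391 CPM in mlx1.

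The malate dehydrogenases oxidise malate to oxaloacetate, Mdh2 in mitochondria and Mdh1 in the cytosol, where it takes part in the malate-aspartate shuttle. Mdh2 lies on 3R at 14052118 to 14054440, plus strand, and Mdh1 on 2L at 10393847 to 10396275, minus strand. In mlx1 high sugar libraries Mdh2 stood at 942, 945 and 938 CPM, within the wild-type range of 913 to 1067 CPM. Its 4 differences lay between -0.07 and 0.15, and the bounds of their 4 intervals all lay between -0.36 and 0.45. Mdh1 averaged 510.3 ± 47.6 and 522 ± 101 CPM on low sugar, and 583 ± 75.7 and 644 ± 29.2 CPM on high sugar, in wild type and mlx1 (SD, n = 3). Its diet difference in mlx1 larvae was 0.30 ± 0.14 (adjusted p = 0.136 by edgeR). Without mlx1 low sugar library A, where Mdh1 was at 636 CPM against 487 and 443 CPM in B and C, that difference was 0.47 and was called (adjusted p = 0.0189 by edgeR).

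Counted by contrast, the 9 enzymes were read against all 10045 genes. In the wild-type diet contrast 1 of 9 was called higher (skap) where 11.5% of all genes were, and 0 lower where 11.6% were. The median difference of the enzymes was 0.19, against -0.05 over all genes. In the mlx1 diet contrast 2 of 9 were called higher (Idh, Nc73EF) where 13.5% of all genes were, and 0 lower against 15.7%, with medians of 0.12 and -0.01. The diet counts of the enzymes were thus near the background share of higher calls. In the low sugar genotype contrast 2 of 9 were called higher (Idh, skap) against 1.82% of all genes, and 0 lower against 1.77%, with medians of 0.29 and 0.01. With same-letter low sugar libraries taken as pairs, a fit chosen after the data were seen, 4 of 9 were called (Idh, Nc73EF, skap, l(1)G0255). Over all genes that fit called 996, against 361 without the pairs. DESeq2, without pairs, called the same 4 enzymes, and 653 genes in all. With the 6 low sugar libraries fitted alone none of the 9 was called, and 122 genes in all. In the high sugar genotype contrast 3 of 9 were called higher (Idh, Nc73EF, l(1)G0255) against 6.8% of all genes, and 0 lower against 7.06%, with medians of 0.14 and 0.00. In the interaction, the difference between the diet responses of the genotypes, edgeR called 0 of 9 where 6.89% of all genes were called. At an unadjusted p under 0.05 there was 1, skap, and DESeq2 called the same gene. The wild-type low sugar libraries enter both the wild-type diet contrast and the low sugar genotype contrast, so the 2 calls of skap share them. The mlx1 high sugar libraries likewise enter both contrasts in which Nc73EF was called. For Idh, the mlx1 diet call shares the mlx1 libraries of each diet with the genotype call on that diet.

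Markers of tissues moved along with some of these contrasts. The summed level of 10 muscle genes, none at 0, was 82780 to 89030 CPM in mlx1 high sugar libraries and 72690 to 78840 CPM in wild-type ones, without overlap, although only 1 of the 10 was called higher. On low sugar the sum was 53170 to 78640 CPM in wild type and 68050 to 81610 CPM in mlx1, with 0 of 10 called by edgeR. The sum of 8 fat body genes was 2977 to 4196 CPM in mlx1 high sugar and 6662 to 10920 CPM in wild-type high sugar, with Fbp1 at 0 in all 4 groups and Lsp2 at 0 in both wild-type groups. That sum was nearly all Rfabg, the lipophorin precursor, at means of 3439 and 8796 CPM in mlx1 and wild type on high sugar. Of the 8 genes 3 were tested, and 1 of them, Rfabg, was called lower in mlx1 on high sugar. From low to high sugar 1 was called higher (GRHR) and 2 lower in mlx1 larvae, and 1 higher (GRHR) in wild type. The sum was 5098 to 7609 CPM in wild type and 5226 to 9991 CPM in mlx1 on low sugar. The sum of 9 midgut genes, none at 0, was 4287 to 5713 and 3822 to 4047 CPM on high sugar, in wild type and mlx1, against 2371 to 3160 and 2772 to 3073 CPM on low sugar. From low to high sugar 8 of the 9 were called higher in wild type, and 4 higher and 1 lower in mlx1. Between genotypes 1 was called higher in mlx1 on low sugar and 4 lower on high sugar, where differences ran from -2.19 to 1.09. Shares over all genes are given above. Of 9 male germline genes, 3 to 5 were at 0 in a group and the sum was at most 2.59 CPM. The part of tissue makeup in the differences of the 9 enzymes was not tested.

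Levels of different genes were compared per length, on exon entries that overlap no other entry, as CPM per kilobase. The order of the means over 12 libraries, which pool the 4 groups, was kdn (720.2 ± 98.8 SD), Mdh2 (694 ± 76.3), Acon (555 ± 88.0), Mdh1 (487 ± 69.9), SdhB (335 ± 35.2), l(1)G0255 (208 ± 41.7), Nc73EF (178 ± 60.4), skap (130.1 ± 24.3) and Idh (100.4 ± 55.0, on 261 bases). The neighbours kdn and Mdh2, Acon and Mdh1, and l(1)G0255 and Nc73EF stood closer than their SDs. The order changed between groups. In mlx1 high sugar Idh (177) was above skap (142) and Nc73EF (262) above l(1)G0255 (251). Mdh2 was above kdn in both wild-type groups (738 and 679 on high sugar). Of the 261 bases of Idh, 147 are entry 9, with 73 reads, and 114 are entry 10, with 3168. The place of Idh in this order, also beside skap, thus depends on which entries were counted and says little of its abundance. The 10 other subunits of the cycle stood at 279 or below, the highest being CG7430. Of these, SdhC was measured on 52 bases. For l(1)G0156, CG6439, CG10219, SdhA and CG5028 only 30.9 to 51.4% of the reads lay in the entries used. Their places thus also depend on which entries were counted. CG5214, the succinyltransferase (E2) of the 2-oxoglutarate dehydrogenase complex, stood at 228 ± 31.5, and Scsalpha, the partner subunit of skap, at 220.4 ± 22.3. SdhA, the flavoprotein that pairs with SdhB, stood at 173 ± 28.9.

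The exon entries of an enzyme gave ratios of different size, although a test of exon usage called none of them. In Nc73EF the log2 ratio of mlx1 to wild type on low sugar was 0.74 to 1.05 in entries 9 to 16, towards the 5′ end, and 0.31 to 0.41 in entries 17 to 19. Entry 21, the 3′-most counted one, was at 0.69. On high sugar the order was the other way round, with 0.41 to 0.67 in entries 9 to 16 and 0.82 to 1.01 in entries 17 to 19, but again 0.69 in entry 21. In l(1)G0255 the low sugar ratio went from 0.69 in entry 1 to 0.25 in entry 6, and the high sugar ratio from 0.27 to 0.58. Entry 2, with 387 reads, stood apart at 0.84 on low sugar and 1.30 on high sugar, the largest ratio of the gene on both diets. In kdn the low sugar ratio was 0.63 in entry 2, 0.33 in entry 3 and 0.26 in entry 4. In skap it was 0.66 in entry 4 and 0.49 in entry 11. In the uncalled Mdh2 it was 0.33 in entry 1 and -0.03 in entry 4.

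**Figure D3:**
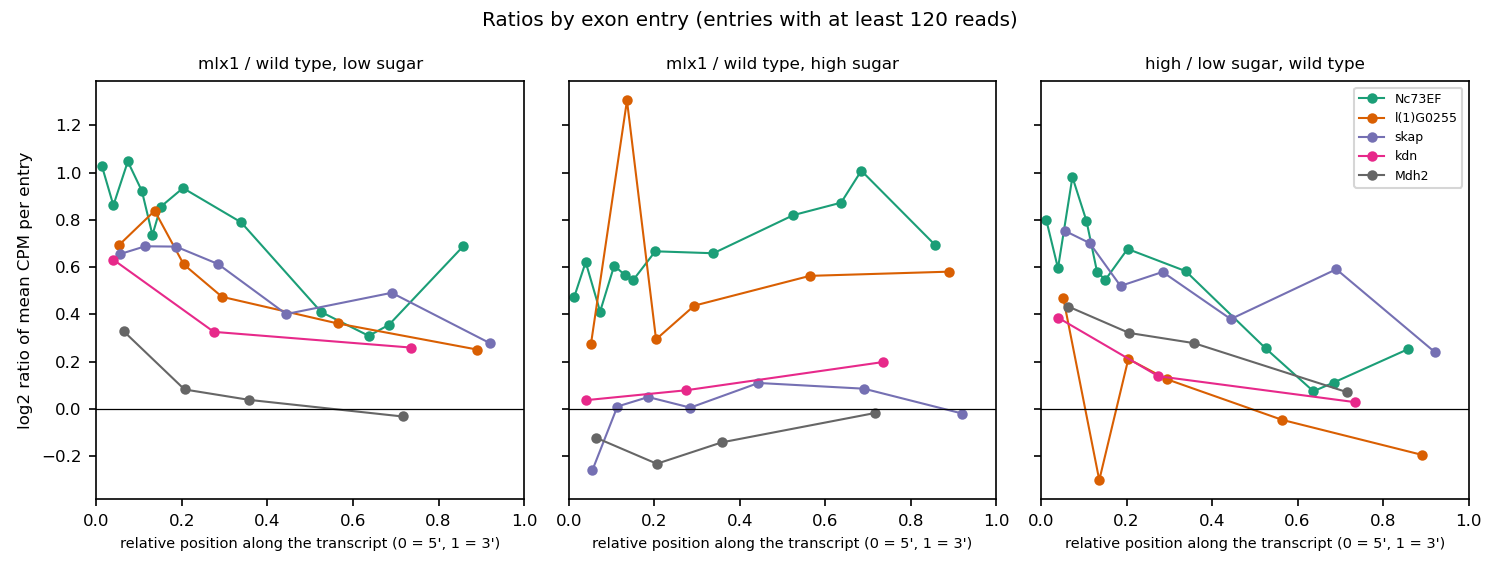
Log2 ratio of group mean CPM in each exon entry with at least 120 reads, against its relative position from the 5′ end (0) to the 3′ end (1), for 5 of the 9 enzymes. On low sugar the mlx1 to wild-type ratio is mostly larger at the 5′ end (Mdh2, 0.33 to -0.03) and on high sugar mostly larger at the 3′ end (kdn, 0.04 to 0.20), with exceptions in entry 21 of Nc73EF (0.69 in both) and entry 2 of l(1)G0255 (1.30 on high sugar).

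The position of reads along genes also differed between the groups across the table. Over 5291 genes, the median relative position of a gene's reads was 0.550 to 0.569 in wild-type low sugar libraries and 0.535 to 0.557 in mlx1 low sugar ones. It was 0.534 to 0.549 in wild-type high sugar and 0.552 to 0.567 in mlx1 high sugar libraries. Wild type was therefore read nearer the 3′ end than mlx1 on low sugar, with overlap, and nearer the 5′ end on high sugar, without overlap. The part of this in the entry ratios was not tested. A test of unequal exon usage within genes (edgeR's diffSpliceDGE) took in 43 entries of the 9 enzymes and called 0 of them in each of the 5 comparisons. Over all 32629 entries tested it called 0.144% in the wild-type diet contrast, 0.0797% in the mlx1 diet contrast, 0.104% in the low sugar genotype contrast, 0.162% in the high sugar genotype contrast and 0.0215% in the interaction. At an unadjusted p under 0.05 there were 2, 0, 0, 1 and 0 entries of the enzymes.

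Gene sums were therefore also made from the entries on either side of the midpoint of each gene. From the 5′ side, Idh, Nc73EF, skap and l(1)G0255 were all called on low sugar between genotypes (Nc73EF 0.77, adjusted p = 0.0449, and l(1)G0255 0.48, adjusted p = 0.0363, by edgeR). From the 3′ side only skap was, and Idh had too few counts there to be tested. Over all genes, 135 of 9187 were called higher in that contrast from the 5′ side and 159 of 9478 from the 3′ side. On high sugar, Nc73EF and l(1)G0255 were called between genotypes from either side. In the wild-type diet contrast skap was called from either side, with Idh and Nc73EF added on the 5′ side. The mlx1 diet call of Nc73EF was lost on the 5′ side (0.51, adjusted p = 0.0604 by edgeR) and kept on the 3′ side.

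In the low sugar groups the same library was highest for all 9 enzymes. Library A was the highest of 3 for 9 of 9 enzymes in wild-type low sugar and for 9 of 9 in mlx1 low sugar, where 44.9% and 46.5% of all genes were highest. The mean log2 CPM of the enzymes in these libraries was 0.25 and 0.28 above the mean of their group. The same libraries were the lowest of their groups in larval cuticle genes, whose mean log2 CPM was 1.11 and 1.09 below the group mean. Wild-type high sugar library C, with cuticle genes 0.99 below the group mean, had the enzymes 0.06 above it. In mlx1 high sugar the mean of the enzymes varied least, by -0.04 to 0.03. In the high sugar groups no library was highest throughout, with 0, 4 and 5 enzymes highest in wild-type A, B and C and 4, 4 and 1 in mlx1. Without these 3 low-cuticle libraries 4 enzymes were called higher on high sugar in each genotype. Over all 10138 genes tested, 1307 were called higher in wild type and 1510 in mlx1. In wild type the 4 enzymes were Acon (0.46, adjusted p = 0.0114), Idh, Nc73EF and skap, by edgeR. In mlx1 larvae they were Idh, Nc73EF, SdhB (0.25, 0.0414) and Mdh1 (0.47, 0.00565), by edgeR. The low sugar A libraries left out were highest for all 9 enzymes, so leaving them out by itself lowers the low sugar means. The genotype counts were then 3 on low and 3 on high sugar, where 181 and 883 of all genes were called higher.

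**Figure D4:**
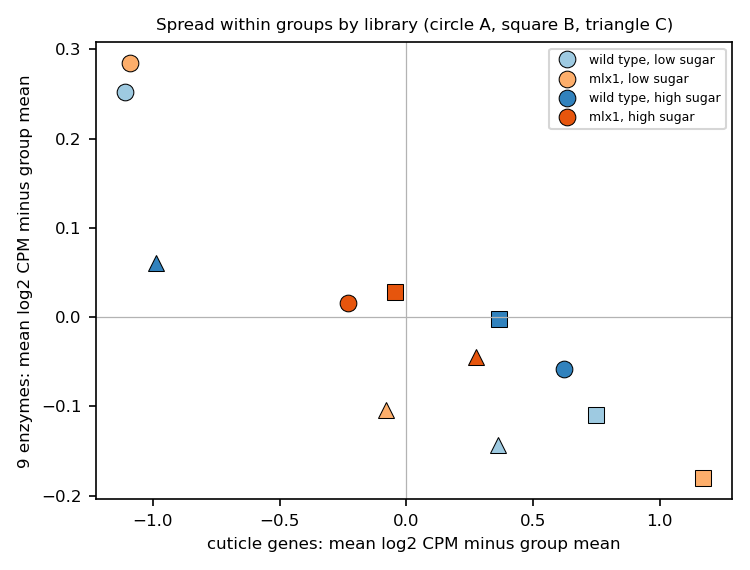
Mean log2 CPM of the 9 enzymes in each library minus the mean of its group (vertical axis), against the same for larval cuticle genes (horizontal axis). The 2 low sugar A libraries sit at the upper left, at 0.25 and 0.28 for the enzymes and -1.11 and -1.09 for cuticle genes.

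Few of the other subunits of the cycle were called. Of 10 such genes 9 were tested, and 1 was called higher in the wild-type diet contrast, against 11.5% of all genes. This was CG7430, dihydrolipoamide dehydrogenase, the E3 subunit shared by the pyruvate and 2-oxoglutarate dehydrogenase complexes. It rose by 0.72 ± 0.11 in wild type on high sugar (adjusted p = 0.000991 by edgeR) and was 0.66 lower in mlx1 than in wild type there (log2 fold change -0.66, adjusted p = 0.00211). Its mean was 661 CPM in wild-type high sugar and 401 to 421 CPM in the other groups. CG7430 thus moved opposite to Nc73EF, the E1 subunit of a complex it serves, in the high sugar genotype contrast. Sucb, the other beta subunit of succinyl-CoA ligase, fell by 0.41 from low to high sugar in mlx1 larvae (adjusted p = 0.0417 by edgeR), a call lost in 8 of 19 alternatives. Of the 9 subunits tested, 1 was called lower in that contrast, against 15.7% of all genes. On high sugar between genotypes 1 was called lower (CG7430), against 7.06%. On low sugar between genotypes 0 were called, but all 9 differences were positive. Their median was 0.25, against 0.29 for the 9 enzymes and 0.01 over all genes. The NAD-dependent isocitrate dehydrogenase subunits l(1)G0156, CG6439 and CG5028 were called in no contrast by edgeR. Their mlx1 and wild-type means on low sugar were 590 and 498, 254 and 227, and 401 and 335 CPM, in that order. On high sugar they were 585 and 561, 260 and 241, and 374 and 390 CPM. Among 14 further relatives of cycle enzymes 4 were tested. CG1544, a relative of the 2-oxoglutarate dehydrogenase E1 gene Nc73EF, was higher in mlx1 on both diets, by 0.97 ± 0.20 on low sugar (adjusted p = 0.0182 by edgeR) and 1.16 ± 0.20 on high sugar (0.00240). CG4095, a relative of fumarase next to l(1)G0255, was called at a mean of at most 2.34 CPM, higher in mlx1 on high sugar and on high sugar in mlx1. These calls were kept in 12 and 11 of 16 alternatives, and the latter was lost with DESeq2. CG4095 starts at 6575800, within entry 6 of l(1)G0255, and its 137 reads all lay in entries that overlap no other entry. Whether reads of l(1)G0255 add to its count was not tested.

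Pyruvate enters the cycle through the pyruvate dehydrogenase complex and pyruvate carboxylase. Of 8 genes of this step, with a median difference of 0.79, 5 were called higher in wild type on high sugar, against 11.5% of all genes. The 5 include all 3 specific subunits of the pyruvate dehydrogenase complex tested, l(1)G0334 (E1 alpha, 1.27), CG11876 (E1 beta, 0.77) and CG5261 (E2, 1.43). Pyruvate carboxylase, CG1516 (0.81), was another. In mlx1 larvae 2 of 8 were called higher, CG1516 (0.60) and the inhibitory kinase Pdk (1.21), against 13.5% of all genes. On high sugar 4 of 8 were lower in mlx1 than in wild type, against 7.06% of all genes. Among them were CG5261 (-1.66), l(1)G0334 (-1.34) and CG11876 (-1.02). Pdk was higher (1.09), against 6.8% of all genes. The remaining gene of both counts, named after its values were seen, was CG14290, a subunit of the mitochondrial pyruvate carrier (0.65 and -0.44). On low sugar 0 of 8 were called between genotypes by edgeR, where 1.82% of all genes were called higher and 1.77% lower.

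Among 11 genes that link citrate, malate and amino acids to the cycle, which are enzymes, carriers and iron regulatory proteins of the aconitase family, 5 were called higher in wild type on high sugar, and 4 higher and 1 lower in mlx1 larvae. Between genotypes 2 were higher and 1 lower in mlx1 on low sugar, and 3 higher and 3 lower on high sugar. The shares over all genes were 11.5% higher in the wild-type diet contrast, and 13.5% higher and 15.7% lower in mlx1. Between genotypes they were 1.82% higher and 1.77% lower on low sugar, and 6.8% and 7.06% on high sugar. Malic enzyme, Men, rose by 1.70 in wild type and 1.76 in mlx1, and the citrate carrier sea by 1.06 and 0.96. Of the 1299 reads of sea, 99.8% lay in 1 entry of 96 bases, so its values measure that stretch. ATPCL, which splits citrate to acetyl-CoA in the cytosol, rose by 2.64 in wild type and was -2.92 in mlx1 against wild type on high sugar. The aspartate-glutamate carrier aralar1 was lower in mlx1 on both diets, by -0.83 and -2.37. Gdh, glutamate dehydrogenase, which links glutamate to 2-oxoglutarate, was higher in mlx1 on both diets, by 1.24 and 1.00. Irp-1B, one of the iron regulatory proteins, was higher in mlx1 by 0.88 and 2.12. Of 23 other respiratory chain subunits 21 were tested, and the median difference lay between -0.06 and 0.04 in the 4 contrasts. Cytochrome c, Cyt-c-p, was lower in mlx1 on high sugar (-0.67) and on high sugar in mlx1 (-0.53). CoIV, at a mean of at most 4.11 CPM, was lower in mlx1 on low sugar (-1.01), a call lost in 11 of 19 alternatives.

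**Figure D5:**
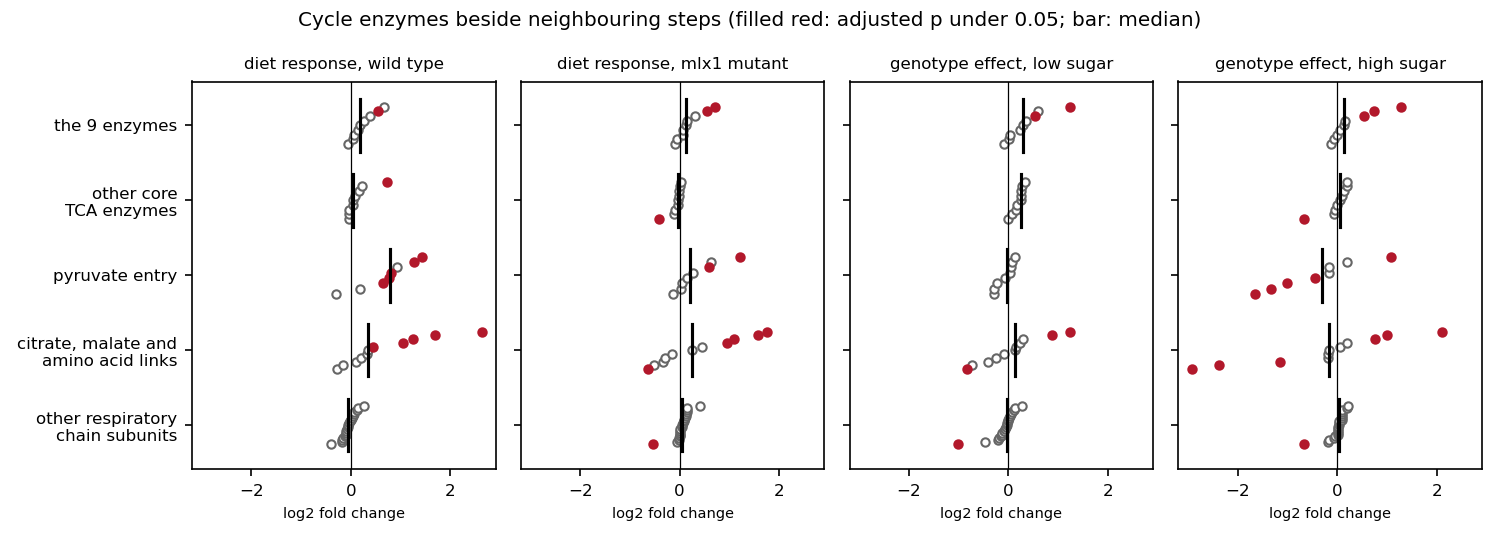
Log2 fold changes of the 9 enzymes and of 4 other lists in the 4 contrasts, 1 point for a tested gene, red where the adjusted p was under 0.05, with a bar at the median. The pyruvate entry genes have their median at 0.79 in the wild-type diet panel, against 0.19 for the 9 enzymes and -0.06 for respiratory chain subunits.

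Across the 12 libraries, the genes whose log2 CPM most resembled the mean log2 CPM of the 9 enzymes, among 7102 genes with a mean of at least 10 CPM, were CG10627 (Pearson r = 0.96), Tsf1 (0.96), eIF3-S10 (0.95), CG1582 (0.95) and mib2 (0.95). These correlations are a description over libraries that also share group and depth.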

How the data were processed

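The authors deposited 1 table of whole-number read counts for 82046 exon entries and 12 libraries. Per the submitters' processing notes BWA 0.5.9, SAMtools and HTSeq 0.6.1 were used, and per the labels' protocols the libraries were made from poly(A) RNA with random primers. Build, annotation and strandedness of the counting were not stated in any source at hand. Column names say 1 h for low sugar where the labels say 1.5 h, and all low sugar columns carry the tag L2 and all high sugar columns L3. Of the 68 entries of the 9 enzymes, 27 overlap another entry and 14 of these hold no count in any library, while 0 of the 41 others do. Some overlapping entries are thus uncounted, while others (skap entry 11, l(1)G0255 entry 6) are well counted. Entries without a gene name (42, at most 0.0148% of a library) were left out.

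Counts were summed per gene and fitted in R 4.3.3 with edgeR 4.0.16 (TMM, filterByExpr, robust quasi-likelihood test, 1 mean per group, all 12 libraries, common dispersion 0.0619, two-sided). Exon usage was tested with diffSpliceDGE. DESeq2 1.42.0 was an alternative. Each test was first tested on simulated data. The 9 genes, the other lists and the markers were chosen with earlier results of these data known. All 9 enzymes are named in every contrast, and from each other list at most 4 called genes in a contrast, by smallest p. The genes named for likeness are the 5 with the highest r.

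Groups share the replicate letters A to C. Over 18 pairs of same-letter libraries the correlation of deviations from group means was -0.538 to 0.744, with 8 over 0.1. Between the low sugar groups it was 0.744, 0.687 and 0.174 for A, B and C. Over all groups a library was most like its own letter in 14 of 36 comparisons. Whether the letters mark pairs was not stated in the sources used here. The low sugar genotype contrast was also fitted with the letter as a block, an alternative chosen after the data were seen. So were the fits without the 3 libraries lowest in cuticle genes against their group mean, and those on the 5′ and 3′ sides of each gene. Read positions used genes with at least 1000 reads in 3 entries or more. Sequences of the genes were not used here.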

Additional observations from a re-analysis of the deposited data

Results flagged for a closer look

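None of the 9 enzymes had a diet response that differed between the genotypes at an adjusted p under 0.05 by edgeR. At an unadjusted p under 0.05 there was 1, skap, which DESeq2 also called. With 3 libraries in a group, single libraries far from the others were not tested for. In the neighbouring lists, 9 genes had diet responses that differed between mlx1 and wild type by the interaction test, with the value as the log2 response in mlx1 minus that in wild type. It was -0.73 for CG7430 (adjusted p = 0.0204), -1.11 for l(1)G0334 (0.00243), -0.73 for CG11876 (0.0122) and -1.38 for CG5261 (0.000462). It was 1.02 for Pdk (0.00939), -2.18 for ATPCL (0.00588), -1.54 for aralar1 (0.000326), -0.74 for Got2 (0.0396) and 1.24 for Irp-1B (0.00322). The calls of CG7430 and Got2 were lost in 4 and 10 of the 24 alternatives run, and those of the other 7 were kept in every alternative in which they were tested.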

How the results depend on the processing

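The 3 enzymes called between genotypes on high sugar gave 3 calls in all alternatives except the 3′ side of genes (2) and left-out libraries (2 to 3). In the wild-type diet contrast the count of 1 became 2 with RLE factors, 2 with a filter of at least 5 CPM in 3 libraries, 2 with DESeq2, 3 from the 5′ side and 4 without the 3 low-cuticle libraries, and was 1 to 3 with a library left out. In the mlx1 diet contrast the count of 2 became 1 from either side of genes and 4 without the low-cuticle libraries, and was 0 to 3 with a library left out. On low sugar between genotypes the count of 2 became 1 from the 3′ side, 4 from the 5′ side, 4 with DESeq2, 4 with the replicate block among low sugar libraries and 0 with the 6 libraries alone, and was 0 to 3 with a library left out. In the interaction the count of 0 became 1 (skap) with the 5 CPM filter, with DESeq2, with a cuticle covariate and without entries overlapping other genes, and was 0 to 1 with a library left out. With the 5 CPM filter, DESeq2, the covariate and no overlapping entries, 868, 1202, 1238 and 762 of all genes were called there, against 692. With the replicate letter as a block over all 12 libraries, the counts were 1, 2, 2, 3 and 0 in these contrasts, as without it, and the block changed no call of the 9 enzymes. It ended 2 calls of tissue markers (Vha100-4 on low sugar between genotypes, Rfabg in the interaction), and over all genes the interaction calls went from 692 to 534. No called value changed its direction in any alternative. Exon usage gave 0 calls throughout. The causes were not tested. Over all genes, DESeq2 called 653 on low sugar between genotypes against 361, and 1202 in the interaction against 692. Leaving out a library moved these to between 180 and 441 and between 271 and 1021. In the wild-type diet contrast the share of higher calls was 60.4% from the 5′ side against 49.8%. Genes called higher there were 1154 in the main fit, 1345 with RLE factors and 1158 with the 5 CPM filter. They were 1471 with DESeq2 and 1124 from the 5′ side. In the mlx1 diet contrast they were 1361 in the main fit, 1147 from the 5′ side and 1048 from the 3′ side. Depth limits Idh, at 9.33 to 53.8 CPM, more than the other enzymes.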
